A study of Arabidopsis thaliana with 6 samples.

Results

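miR163, miR858 and miR826 are small RNAs of Arabidopsis thaliana whose known targets make or control specialised metabolites, the compounds a plant uses for defence, pigment and light screening. They were picked by family number, together with miR828 and miR5090, from a table of 294 mature miRNA sequences. A locus of these families is named in 4 of its rows: miR163-3p, miR858a-5p, miR858b-3p and miR826a-5p. No row names miR828 or miR5090, which are not analysed here. The libraries were made from seedlings in shaking liquid culture that carry the brassinosteroid receptor BRI1 with a Flag tag, driven by its native promoter, in the bri1-5 receptor mutant, and both groups share this genotype. The control group received solvent for 90 min and the other group 1 µM epibrassinolide (epiBL, an active brassinosteroid) for 90 min, with 3 biological replicates each. Per the file headers, the authors' own comparison is of 0 min against 90 min, whereas the labels give 90 min to both groups. The groups here follow the labels, and this conflict was not settled, so it also bears on the folds quoted from the authors' deposited table. The sources used here give neither the seedlings' age nor the number of transgenic lines, nor whether replicates came from separate cultures. The p-values therefore cover only the variation among these libraries, which may be technical. The label seedling was not checked against marker genes, since the counts are of miRNAs alone.

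A plant miRNA is cut from one arm of a hairpin precursor, and guides an ARGONAUTE protein to messenger RNAs that match it over nearly its whole length, which are then cleaved or repressed. miR163 acts on methyltransferases of the SABATH group, which add methyl groups to small acids and make volatile or signalling esters. miR858 acts on R2R3-MYB transcription factors, among them MYB11, MYB12 and MYB111, which switch on flavonol synthesis. miR826 acts on AOP2, an enzyme that modifies the side chain of aliphatic glucosinolates, the mustard oil precursors. miR828 restrains the MYB activators of anthocyanin, and miR5090, like miR826, acts on AOP2. The comparison asks whether the hormone changes the level of these miRNAs within 90 min.

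The 4 mature sequences are shown because the counts are of reads identical to them. Capitals mark the seed, bases 2 to 8 from the 5′ end, and T stands for U as in the deposited table.
miR163-3p: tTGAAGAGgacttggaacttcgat
miR858a-5p: tTTCGTTGtctgttcgacctt
miR858b-3p: tTCGTTGTctgttcgaccttg
miR826a-5p: tAGTCCGGttttggatacgtg
miR163-3p has 24 bases, and the other 3 have 21. The 4 seeds all differ, and each occurs in only 1 row of the table. The miR858 sequences are the same run of bases read from starts 1 base apart, so their seeds differ although they cover nearly the same site. No other sequence in the table was within 2 mismatches of a member of the same length or an end shift of at most 2 bases.

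The loci were found by exact match to the RefSeq TAIR10.1 assembly. miR163-3p has 1 match, on chromosome 1 at 24884359-24884382, plus strand, in the MIR163 precursor (AT1G66725, 331 bases) and outside any other annotated gene. miR858a-5p has 1 match, on chromosome 1 at 26773695-26773715, minus strand, in the MIR858a precursor (AT1G71002, 187 bases). miR858b-3p has 2 matches. The first is at 26772907-26772927 on the plus strand of chromosome 1, in the MIR858b precursor (AT1G09213, 303 bases). The second is at 26773694-26773714 on the minus strand, inside MIR858a and 1 base downstream of miR858a-5p. The MIR858 precursors lie on opposite strands with a gap of 603 bp. miR826a-5p has 1 match, on chromosome 4 at 1340528-1340548, plus strand, in the MIR826a precursor (AT4G03039, 178 bases). A noncoding RNA gene, AT4G03038, lies across it on the minus strand, and so does the precursor of MIR826b (AT4G04365, 1340521-1340614), which is not analysed here.

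The windows below show why a read of the miR858b sequence cannot be assigned to a locus. Each holds the miR858b-3p run in capitals with 5 flanking bases on each side.
MIR858b window: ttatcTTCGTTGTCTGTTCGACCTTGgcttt
MIR858a window: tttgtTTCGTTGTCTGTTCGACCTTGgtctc
The base before the run differs between the precursors, so the miR858a-5p sequence matches the MIR858a precursor only.

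**Figure D1:**
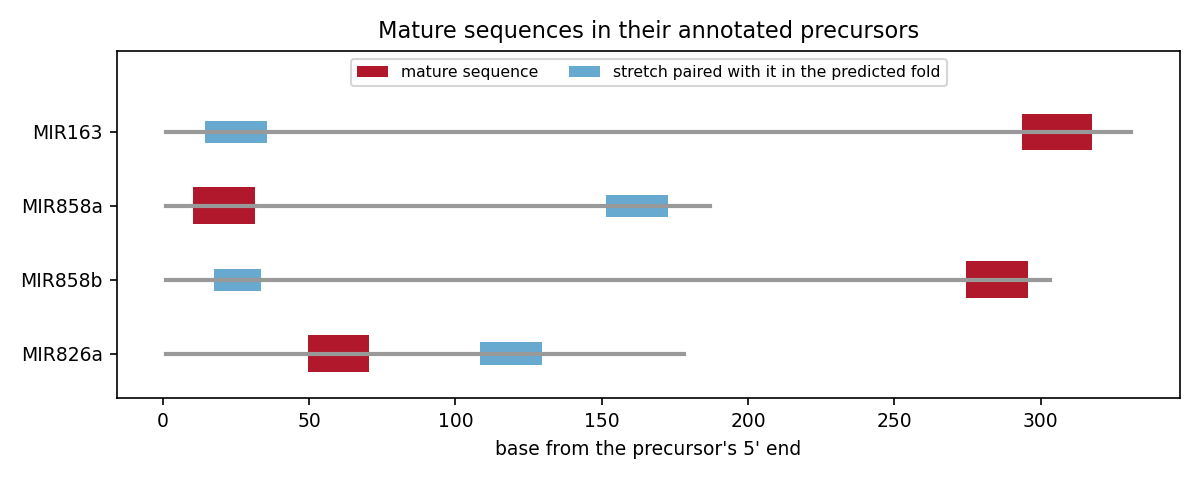
Each grey line is an annotated precursor, drawn in bases from its 5′ end, with the mature sequence in red and the stretch paired with it in the predicted lowest-energy fold in blue. The mature sequence sits near the 3′ end in MIR163 (bases 294 to 317 of 331) and MIR858b (275 to 295 of 303), and on the 5′ side in MIR858a (11 to 31 of 187) and MIR826a (50 to 70 of 178).

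In the predicted fold, 21 of the 24 bases of miR163-3p were paired, 20 of 21 in miR826a-5p, 19 of 21 in miR858a-5p and 14 of 21 in miR858b-3p at MIR858b. The predicted folding energy was -0.369 kcal/mol per base for MIR163, -0.302 for MIR826a, -0.245 for MIR858a and -0.224 for MIR858b. The stretch opposite miR163-3p reads atcgagttccaacctcttcaa, at 24884080-24884100 of chromosome 1. The MIR826a precursor, at 1340479-1340656 on the plus strand of chromosome 4, shows a short hairpin whose mature arm is in capitals.
MIR826a precursor: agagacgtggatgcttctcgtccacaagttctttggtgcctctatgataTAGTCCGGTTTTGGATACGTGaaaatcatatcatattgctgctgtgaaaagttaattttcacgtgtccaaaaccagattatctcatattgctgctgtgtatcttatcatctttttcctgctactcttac
The stretch opposite the mature arm, cacgtgtccaaaaccagatta, spans 1340587-1340607.

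Sites in the transcripts of the named target families are given to show what these miRNAs can pair with. No target RNA was measured, so they describe sequence and not regulation. Sites are read 5′ to 3′ along the transcript, capitals mark bases in Watson-Crick pairs with the miRNA, and a site's mismatch score adds 1 per mismatch and 0.5 per G:U pair, without gaps.
miR163-3p on PXMT1: catcgAGTTCCAAGTCCTCTTCAA
miR163-3p on FAMT: AatcgAGTTCCAAGTttTCTTCAA
miR858a-5p on MYB12: cAGGgaGAACAGACAACGAAA
miR858a-5p on MYB111: cAGGaaGAACAGACAACGAAA
miR858a-5p on MYB83: cAGGTaGAACAGACAACGAgA
miR826a-5p on AOP2: CACGTgTCCAAAACCGGACTA
PXMT1, a paraxanthine methyltransferase, and FAMT, a farnesoic acid methyltransferase, each had a score of 4, on chromosome 1 at 24874307-24874330 (minus strand) and on chromosome 3 at 16380055-16380078 (plus strand). Of 38203 genes scanned with miR163-3p, by the longest transcript of each, 8 scored 4 or less, these included. The unpaired bases at the PXMT1 site fall opposite bases 21, 23 and 24 of the miRNA, its 3′ end. MIR163 lies 9299 bp from PXMT1 and 1585 bp from AT1G66720, whose site scored 4.5.

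For miR858a-5p, MYB12 (chromosome 2, 19478416-19478436, plus strand) and MYB111 (chromosome 5, 19999866-19999886, minus strand) each scored 3, and 12 of 38238 genes scored 3 or less. MYB83, a switch of secondary wall formation, scored 2.5 (chromosome 3, 2577626-2577646, minus strand). At MYB12 and MYB111 the mismatches fall opposite bases 16, 17 and 21. All 8 MYB sites examined lie in coding sequence, with scores of 2.5 to 5. miR858b-3p scored the same as miR858a-5p at 7 of them and 0.5 higher at MYB40. Of the 38238 genes scanned with miR858a-5p, 114 scored 4 or less, as MYB32 did, and 997 scored 5 or less, as MYB7 did. The weaker sites are therefore less distinctive than those at 3 or less. The AOP2 site of miR826a-5p scored 0.5, from 1 G:U pair opposite base 16 (chromosome 4, 1352134-1352154, minus strand). RefSeq annotates AOP2 in this reference accession as a transcribed pseudogene, 11031 bp from MIR826a. All loci, sites and annotations here are those of the reference, and the seedlings' own genome was not examined.

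Reads identical to any listed mature sequence summed to between 2050074 (epiBL replicate 3) and 4482479 (control replicate 1) per library. The 4 members together took 0.0178% ± 0.00106 (SD, n = 3) of them in the solvent libraries and 0.0175% ± 0.00161 (SD, n = 3) in the epiBL libraries. By mean CPM (counts scaled to the library total), miR163-3p ranked 54 of 294 with 156.1, miR858a-5p ranked 97 with 19.5, and miR826a-5p ranked 195 with 0.734. miR858b-3p had 0 reads. Levels of different sequences also carry the known preferences of adapter ligation, so only their order of magnitude is compared. In whole seedlings, fewer cells that make a miRNA and less of it per cell cannot be told apart.

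**Figure D2:**
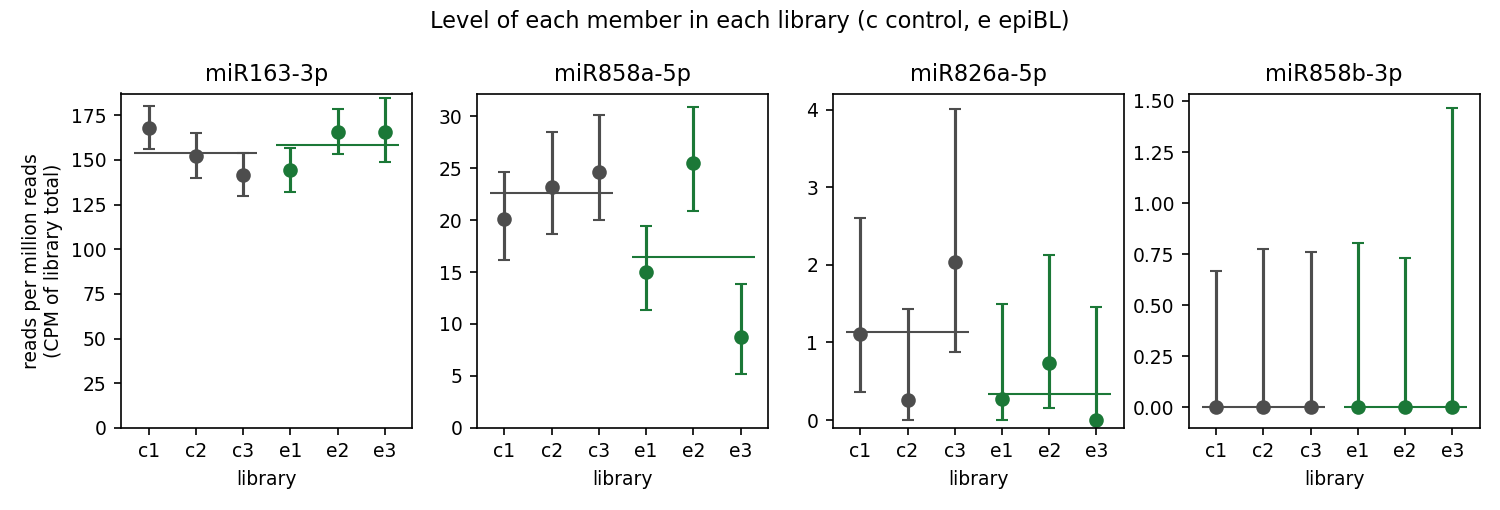
CPM of the library total for each member in the 3 control (c) and 3 epiBL (e) libraries, with 95% exact Poisson intervals as bars (at 0 reads, the bar ends at 3 counts), which cover counting error only, and group means as lines. miR163-3p stays between 141 and 168 in all 6 libraries, miR858a-5p falls to 8.78 in epiBL replicate 3, and miR826a-5p and miR858b-3p lie at or near 0.

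miR163-3p was counted 752, 590 and 556 times in control replicates 1, 2 and 3 and 538, 680 and 340 times in epiBL replicates 1, 2 and 3. These are 168, 152 and 141 CPM of the total in controls, and 144, 165 and 166 CPM with epiBL. The groups overlap, and control replicate 1 is the highest library on this scale. After scaling by TMM factors (edgeR's correction for library composition), the normalised CPM were 168, 138 and 135 in controls and 152, 158 and 190.1 with epiBL. The groups still overlap, now with epiBL replicate 3, the shallowest library, highest. The solvent group averaged 147 ± 18.4 normalised CPM (SD, n = 3) and the epiBL group 167 ± 20.4 (SD, n = 3).

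The log2 fold change of miR163-3p, epiBL over control, was 0.17 (SE 0.12), and it did not pass edgeR's quasi-likelihood test (adjusted p = 0.40, Benjamini-Hochberg over 148 miRNAs). The 95% interval of the log2 fold change, -0.09 to 0.44, corresponds to 0.940 to 1.35 of the control level. In the authors' deposited table its fold was 1.14 with an unadjusted p of 0.174. The order of epiBL above control held whichever library was left out, with log2 fold changes of 0.10 without epiBL replicate 3 to 0.29 without control replicate 1, none past the threshold.

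miR858a-5p was counted 90, 90 and 97 times in control replicates 1, 2 and 3 and 56, 105 and 18 times in epiBL replicates 1, 2 and 3. These are 20.1, 23.2 and 24.7 CPM of the total in controls, and 15.0, 25.5 and 8.78 CPM with epiBL. The controls lie close together, whereas the epiBL libraries lie on both sides of them: replicates 1 and 3 are below every control and replicate 2 is above every control. The Poisson interval of epiBL replicate 2, 20.9 to 30.9 CPM, overlaps neither that of replicate 1, 11.3 to 19.5 CPM, nor that of replicate 3, 5.20 to 13.9 CPM.

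Normalised CPM of miR858a-5p averaged 21.6 ± 1.76 (SD, n = 3) in the solvent group and 16.8 ± 7.19 (SD, n = 3) in the epiBL group. The log2 fold change was -0.27 (SE 0.25), and it did not pass edgeR's quasi-likelihood test (adjusted p = 0.501). Its 95% interval, -0.81 to 0.26, corresponds to 0.571 to 1.20 of the control level and is wider than that of miR163-3p. In the authors' deposited table the fold was 1.21 downward with an unadjusted p of 0.196. Without epiBL replicate 2 the log2 fold change was -0.65 (95% interval -1.16 to -0.14, unadjusted p = 0.0147 and adjusted p = 0.0727 in edgeR). Without epiBL replicate 3 it was -0.06, and without epiBL replicate 1 it was -0.16.

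**Figure D3:**
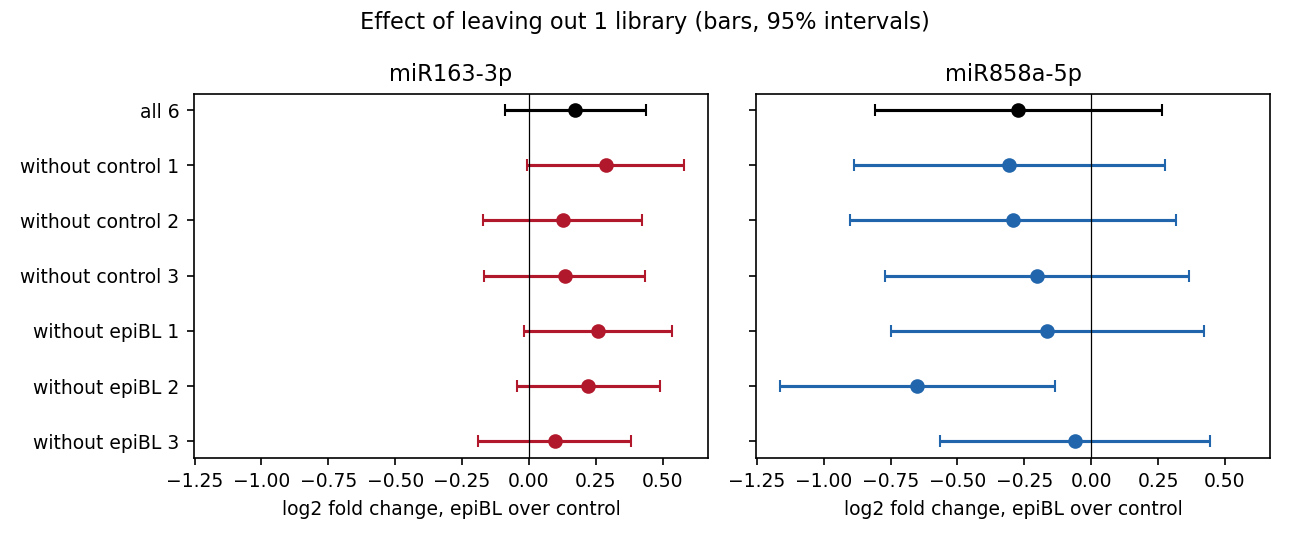
Log2 fold change of normalised counts, epiBL over control, with 95% intervals, for all 6 libraries and with each library left out. miR163-3p stays between 0.10 and 0.29, and miR858a-5p ranges from -0.65 without epiBL replicate 2 to -0.06 without epiBL replicate 3.

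Over all miRNAs tested, 12 of 148 passed (8.11%), 4 of them higher (2.7%) and 8 lower (5.41%) with epiBL, and 27.7% had groups that did not overlap. This background is not stable: the number passing was 22 with a replicate block, and it ranged from 5 (without control replicate 2 or epiBL replicate 3) to 25 (without epiBL replicate 2) with 1 library left out, with 7 without control replicate 3. Of the members, 2 passed the filter on low counts, and 0 of these passed edgeR's test, DESeq2 or limma-trend, or reached an unadjusted p under 0.05 in edgeR. Adjusted p-values were 0.368 and 0.569 in DESeq2 and 0.366 and 0.320 in limma-trend for miR163-3p and miR858a-5p. By unadjusted p they ranked 66 and 87 of the 148.

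**Figure D4:**
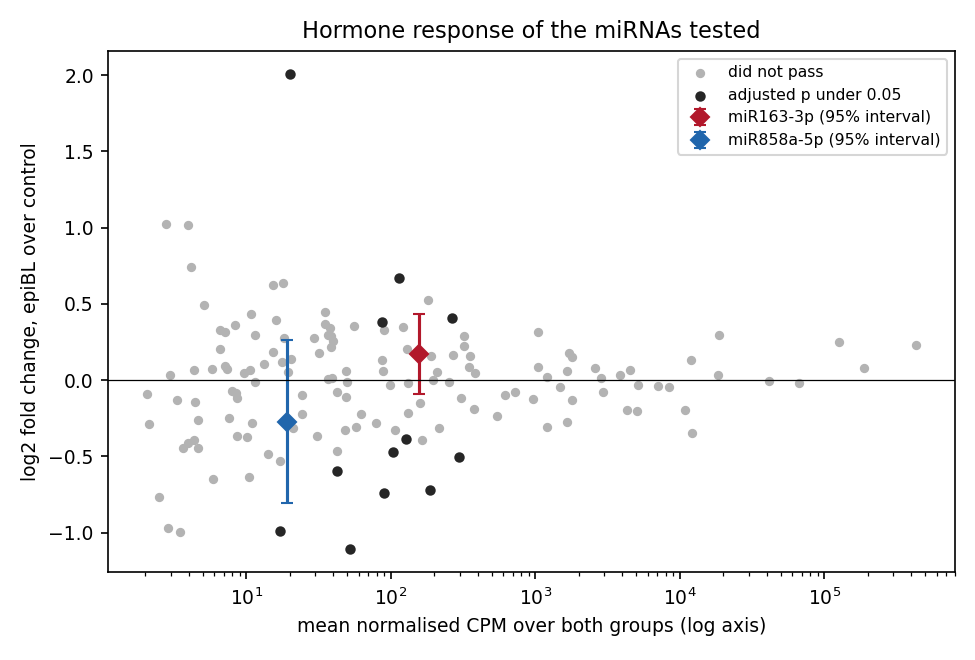
Log2 fold change, epiBL over control, against mean normalised CPM for the 148 miRNAs tested, with those past an adjusted p of 0.05 in black and the tested members as diamonds with 95% intervals. Both intervals include 0, and that of miR858a-5p (-0.81 to 0.26) is the wider.

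The spread of miR858a-5p differed between the groups as described by its coefficient of variation (CV, SD over mean). On the CPM of the total, the CV was 10.4% in controls, where counting error alone gives 10.4%. With epiBL it was 51.5%, where counting error alone gives 13.6%. Of the 148 miRNAs its normalised CV ranked 88 in controls and 8 with epiBL, at 8.17% and 42.9%, against medians of 10.3% and 14.2%. Among the 33 miRNAs with a mean within 2-fold of its own it had the highest CV with epiBL, where the median was 19.0%. The difference in spread was not tested. miR163-3p had normalised CVs of 12.5% in controls and 12.2% with epiBL, ranks 67 and 84. Among the 29 miRNAs with a mean within 2-fold of its own, miR163-3p ranked 11 by CV with epiBL. The medians of those 29 were 6.71% in controls and 9.02% with epiBL, both below the values of miR163-3p.

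**Figure D5:**
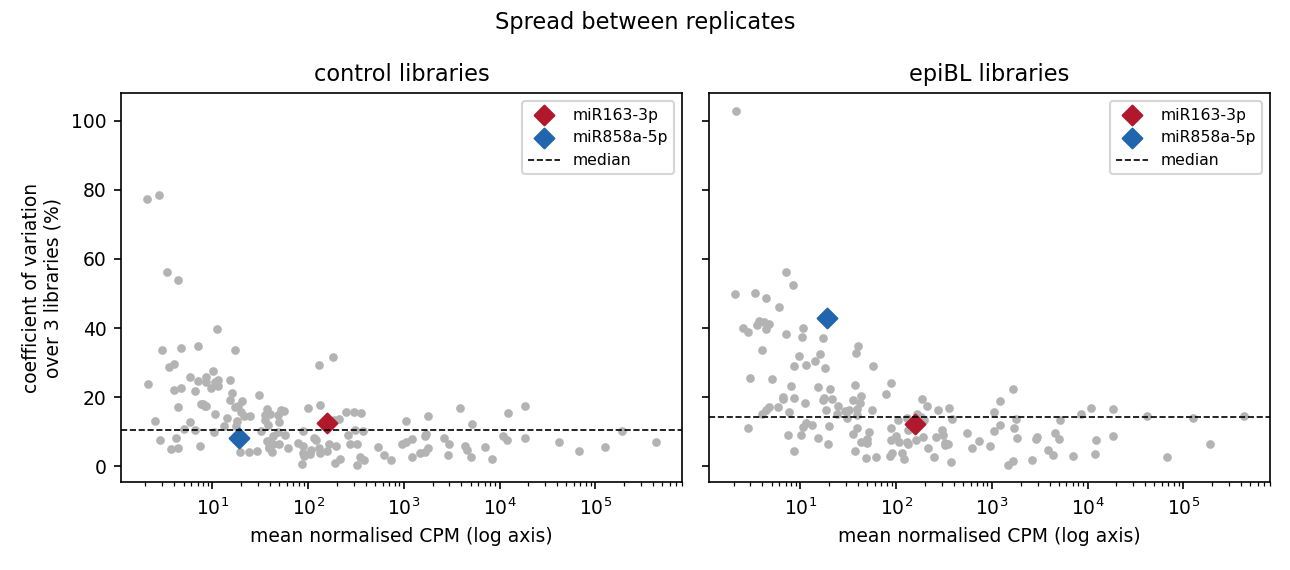
CV of normalised CPM over the 3 libraries of each group against mean normalised CPM (log axis) for the 148 miRNAs tested, with the median as a dashed line. miR858a-5p lies at 8.17% in controls and 42.9% with epiBL, and miR163-3p at 12.5% and 12.2%.

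miR826a-5p was counted 5, 1 and 8 times in control replicates 1, 2 and 3 and 1, 3 and 0 times in epiBL replicates 1, 2 and 3. Its highest library reached 2.03 CPM of the total, and the groups overlap. It was too low for the filter and has no value in the test of the 148. With no filter on low counts, edgeR's test gave a log2 fold change of -1.33 (SE 0.97, adjusted p = 0.519). Over all reads the rate with epiBL was 0.355 of that in controls, from 4 and 14 reads, with an exact 95% interval of 0.0851 to 1.13 that covers counting error only and compares these libraries, not the conditions. In the authors' deposited table its fold was 2.59 downward with an unadjusted p of 0.158. These reads are too few to resolve a difference.

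miR858b-3p had 0 reads in each of the 6 libraries. A count of 0 allows up to 3 counts, which is 0.669 CPM in the deepest library and 1.46 CPM in the shallowest. Since its sequence also lies in MIR858a, 1 base from miR858a-5p, the 0 reads would cover a product of either precursor. This, and the share below, hold only if reads matching both precursors were counted for this sequence. The sources used do not say so. Against the 456 reads of miR858a-5p, 0 reads allow a share of up to 0.658%, for counting error only.

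The tested miRNAs whose normalised level over the 6 libraries most resembled that of miR163-3p were miR777-3p (Pearson r = 0.97) and miR5998a/b-5p (r = 0.96), of 146 compared. For miR858a-5p they were miR161-5p (r = 0.98) and miR391-3p (r = 0.93). These are descriptions over 6 libraries, which share their scaling, and the resemblance is of shape only: miR161-5p ranged from 652 to 759.8 normalised CPM. miR777-3p, miR5998a/b-5p and miR391-3p were scarce, with means of 7.38, 6.58 and 10.5 normalised CPM, so counting error weighs on their shapes. None of these 4 passed edgeR's test.

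Other miRNAs with related targets were set beside the members, and their counts are to be read against the 8.11% of all 148 that passed (2.7% higher and 5.41% lower). Of 6 sequences of miR159 and miR319, whose families include regulators of GAMYB-type MYB factors, 5 were tested and 0 passed in edgeR, with log2 fold changes of -0.03 to 0.44 and a median of 0.03. Of 20 sequences of families linked to anthocyanin, lignin or sulfur for glucosinolates (miR156, miR157, miR395, miR397, miR408, miR857), 18 were tested, 3 rose and 2 fell, with a median of -0.0015 against 0.0046 for all 148. Those that rose were miR156g-5p (2.00, SE 0.22), of a family that acts on SPL factors, and miR395a/d/e-3p (0.67, SE 0.11) and miR395b/c/f-3p (0.40, SE 0.11), which act on sulfate assimilation. Those that fell were miR397a-5p (-0.74, SE 0.11), which acts on laccases, and miR408-5p (-0.50, SE 0.13), the scarcer arm of its precursor. The most abundant tested sequences of miR156, miR397 and miR408 were miR156a/b/c/d/e/f-5p (0.04), miR397b-5p (-0.20) and miR408-3p (-0.20). None of them passed in edgeR (adjusted p of 0.919, 0.208 and 0.208). Another 13 sequences, both arms included, are of families with triggers of secondary siRNAs, a role miR828 also has. Of these, 11 were tested and 0 passed in edgeR, with a median of 0.01. Of 11 sequences of 23 or more bases, 5 were tested and 0 passed in edgeR, and miR163-3p was the most abundant of those with 24 bases.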

How the data were processed

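The authors deposited 1 table of raw counts of reads identical to each mature sequence, per the file headers, from TruSeq small RNA libraries, per the labels' protocols. Their p-value (a test with tagwise dispersions), their signed fold, used here as a score, its log2 and the −log10 of the p-value are in the same deposited table. The submitters' processing notes name TAIR10, while trimming and aligner are not given in the sources used. Members and lists were chosen with earlier results of these data known. Counts were analysed with edgeR 4.0.16 in R 4.3.3: filterByExpr left 148 of 294 sequences, scaled by TMM and tested by robust quasi-likelihood, with Benjamini-Hochberg adjusted p under 0.05 as the call. Totals of 2050074 to 4482479 set the counting error. DESeq2 1.42.0, limma 3.58.1, other scalings, no filter, sums per family, a replicate block and leaving out each library were alternatives. Sequences, sites and folds (RNAfold 2.7.2) came from RefSeq TAIR10.1. The named miRNAs are the members, the 2 most correlated miRNAs of each, and called miRNAs of the lists. The most abundant sequences of miR156, miR397 and miR408 were added after the values were seen.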

Additional observations from a re-analysis of the deposited data

How the results depend on the processing

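Neither tested member passed under any of 13 alternatives each, and both kept their direction. Sums per family, 1 of these, left the members' own counts unchanged, since miR163 has 1 row and miR858b-3p had 0 reads. That alternative changed only the other rows and the scaling. The log2 fold change of miR163-3p ranged from 0.04 (total counts alone) to 0.29 (adjusted p of 0.227 to 0.894), and that of miR858a-5p from -0.65 to -0.06 (adjusted p of 0.0727 to 0.936). Total-count scaling moved the median of all miRNAs to -0.13, and miR163-3p by about as much. The count of 12 called miRNAs was 22 with a replicate block, 26 where the adjusted p had to be under 0.1, and 35 where the unadjusted p had to be under 0.05, both by construction. With 1 library left out it ranged from 5 (without control replicate 2 or epiBL replicate 3) to 25 (without epiBL replicate 2), with 7 without control replicate 3, and the cause was not tested. With the replicate block miR163-3p had 0.18 and miR858a-5p -0.32, with adjusted p of 0.353 and 0.297. Whether replicate numbers mark a pairing was not settled, and the main fit used none. Same-numbered libraries had correlations of deviations of -0.14, 0.12 and -0.13, and for 2 of 6 the best partner had the same number. With 3 libraries per group these values cannot exclude a pairing. Without a filter the log2 fold change of miR826a-5p came to -1.33 (SE 0.97, adjusted p = 0.519), against -1.77 from group mean CPM. Arm ratios and ratios within a family were not run, since no member had a second arm or a paralogue with reads. Counts of miR826a-5p and miR858b-3p were too low to test, and the cause was not tested.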

Other observations

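Library scaling cancels in the ratio of miR163-3p to miR858a-5p, which was chosen after the values were seen. It was 8.36, 6.56 and 5.73 in control replicates 1, 2 and 3 and 9.61, 6.48 and 18.9 in epiBL replicates 1, 2 and 3, so the groups overlap and epiBL replicate 3 stands highest.

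Of the 12 genes that scored at most 3 for miR858a-5p among the 38238 scanned, 9 have a MYB symbol, as 123 of all scanned genes do, and 1 more is TT2, a MYB activator of seed coat tannins. This was looked at after the scan was seen. For miR826a-5p the 2 genes that scored 0 were AT4G03038 and MIR826b, both on the opposite strand of the MIR826a locus. Both lie across the mature sequence there, so a score of 0 follows from their position and is not a finding of the scan.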
